A study of Mus musculus with 8 samples.

Results

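The nuclear-encoded subunits of the mitochondrial respiratory chain were followed in activated mouse CD8+ T cells, in 2 polyA RNA-seq experiments. Members were chosen by gene symbol, from the families Nduf, Sdh, Uqcr, Cox and Atp5, and had to reach a normalised read count of at least 10 in at least 2 libraries. In the knockout experiment 80 symbols matched and 78 passed, of 15415 genes that passed and 49490 listed. In the IL-2 experiment 81 matched and 80 passed, of 13978 that passed and 55291 listed. By symbol, passing members numbered 75 in both tables and 83 in either, which are 82 genes, since Atp5f1 in the knockout table and Atp5pb in the IL-2 table are names of one gene. Cox7b2 was listed at 0 in all 8 libraries, and Cox6a2 missed the minimum in the knockout experiment, with 0 and 0 in knockout libraries against 6.09 and 13.2 in control libraries. Cox7a1 in both experiments and Cox6a2 in the IL-2 experiment reached the minimum only through their control or untreated libraries, so a difference was built into their passing. Cox6b2 in the knockout experiment also needed its control libraries to pass, since knockout replicate 2 had 9.80.

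All cells were CD8+ T cells from spleens and lymph nodes. In the first experiment, Trim28-/- cells (labelled TRIM28 knockout) were compared with Trim28 fl/fl cells (labelled WT) after in vitro activation, whose length the labels do not give. The way the floxed gene was deleted is not given in the sources used here. In the second, WT cells received anti-IL-2, an antibody to the T cell growth factor IL-2, or were left untreated, during 3 days of culture with anti-CD28 and anti-CD3. Each of the 4 groups had 2 libraries. No label tells whether a pair came from separate mice or cultures, so p-values reflect the spread of these particular libraries, possibly a technical one. The 2 antibody libraries are called A and B because their columns carry no replicate number.

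Most of the energy that mitochondria harvest passes through 5 membrane complexes. Complex I takes electrons from NADH and complex II, which is also the succinate dehydrogenase of the TCA cycle, takes them from succinate. Complex III passes them through cytochrome c to complex IV, which reduces oxygen, and complex V (ATP synthase) uses the resulting proton gradient to make ATP. All subunits of complex II and most subunits of the other complexes are nuclear genes, while a few of complexes I, III, IV and V are encoded by mitochondrial DNA. T cells increase their mitochondrial mass and raise respiration and glycolysis when they are activated. In bulk RNA, fewer cells expressing a gene and less RNA per cell cannot be told apart.

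Promoters of respiratory chain genes are known for sites of nuclear respiratory factor NRF1 and of the ETS-family factor GABP. RefSeq promoters (GRCm38.p6, 250 bases before to 50 after the start) were matched for 66 members. The NRF1-type element, GCGC separated by any 2 bases from a second GCGC, reads the same on both strands and occurred in 18 of these 66 (27.3%), against 7.0% of 27025 genes. CCGGAAG, an ETS-type element searched on both strands, occurred in 17 (25.8%), against 9.93% of all genes. AAGATGGCG, a YY1-type element searched on both strands, was found in 7 (10.6%), against 1.64% of all genes. The ETS and YY1 letters can share the bases AAG, base composition was not matched, and a match is no evidence of binding. Among members with a promoter, the NRF1 letters stood in 6 of the 21 higher in the knockout, 1 of the 13 lower and 11 of the 30 not called. With IL-2 antibody they stood in 7 of the 26 higher, 1 of the 11 lower and 10 of the 29 not called. The promoters of 2 members that were higher in both experiments (Sdha and Uqcrc1) and of 2 that were lower in both (Uqcrh and Ndufv3) are printed 5′ to 3′, picked after their values were seen. Capitals mark NRF1 letters in the promoters of Sdha (chr13:74350191-74350490 on the minus strand) and Uqcrc1 (chr9:108936398-108936697 on the plus strand). In Uqcrh (chr4:116075021-116075320 on the minus strand) they mark the ETS letters on the reverse strand. The window of Ndufv3 (chr17:31519865-31520164 on the plus strand) holds none of the 3 motifs.
Sdha: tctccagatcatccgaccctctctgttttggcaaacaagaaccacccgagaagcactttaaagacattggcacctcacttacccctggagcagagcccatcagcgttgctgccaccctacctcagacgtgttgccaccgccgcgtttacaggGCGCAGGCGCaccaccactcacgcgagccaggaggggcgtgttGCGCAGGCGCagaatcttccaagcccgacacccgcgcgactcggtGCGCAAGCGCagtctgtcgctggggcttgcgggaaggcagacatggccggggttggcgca
Uqcrc1: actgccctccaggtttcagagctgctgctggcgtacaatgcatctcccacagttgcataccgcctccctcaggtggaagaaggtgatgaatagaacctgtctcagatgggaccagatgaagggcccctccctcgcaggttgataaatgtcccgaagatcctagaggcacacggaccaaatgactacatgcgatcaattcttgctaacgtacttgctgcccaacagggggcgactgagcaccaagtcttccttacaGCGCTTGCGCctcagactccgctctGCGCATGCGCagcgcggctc
Uqcrh: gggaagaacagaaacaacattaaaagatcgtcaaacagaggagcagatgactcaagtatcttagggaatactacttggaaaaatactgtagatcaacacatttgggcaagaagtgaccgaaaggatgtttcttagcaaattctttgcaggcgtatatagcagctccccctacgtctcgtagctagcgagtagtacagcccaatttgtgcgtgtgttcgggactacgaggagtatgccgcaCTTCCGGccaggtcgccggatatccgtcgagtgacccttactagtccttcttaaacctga
Ndufv3: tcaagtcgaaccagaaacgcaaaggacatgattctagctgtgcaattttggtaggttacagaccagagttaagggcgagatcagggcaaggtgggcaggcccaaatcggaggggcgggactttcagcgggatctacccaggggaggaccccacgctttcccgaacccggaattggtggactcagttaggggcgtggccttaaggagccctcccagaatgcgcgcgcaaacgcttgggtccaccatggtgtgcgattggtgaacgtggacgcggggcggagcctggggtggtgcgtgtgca

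Trim28, the gene deleted in the first experiment, had a normalised read count of 415 and 458 in the knockout libraries, against 4262 and 4323 in the control libraries. Il2ra, a receptor chain whose transcription IL-2 signalling sustains, had 22025 and 21937 in the antibody libraries, against 44645 and 43661 in the untreated libraries. Trim28 was also called higher with the antibody, with a log2 fold change of 0.49 (SE 0.051, limma adjusted p = 1.02e-07). In the knockout Il2ra was called lower, at -0.15 (SE 0.026, limma adjusted p = 0.0033). Library depth was 13222831 to 13469789 reads in the knockout experiment and 16618750 to 17069569 in the IL-2 experiment. The summed CD8 T cell markers (Cd3e, Cd3d, Cd8a, Cd8b1, Trac) ranged from 24317 to 24759 in knockout, 21405 to 21657 in control, 33035 to 34157 in antibody and 36464 to 36699 in untreated libraries. Single markers moved apart. In the knockout Cd8b1 was lower, with a log2 fold change of -0.48. Cd3e, Cd8a and Trac were higher there by 0.35, 0.25 and 0.43, and Cd3d did not pass. With the antibody Cd3d, Cd8a and Cd8b1 were lower, at -0.28, -0.40 and -0.54, while Cd3e and Trac did not pass. Summed CD4, NK and erythroid markers stayed at or below 17.5 in every library. The 3 B cell markers summed to 2.94 to 2.95 in knockout libraries, against 15.2 to 16.2 in control libraries, with Ms4a1 at 0, and to 5.73 to 9.59 in antibody libraries, against 4.16 to 8.24 in untreated libraries. The 4 myeloid markers summed to 14.8 to 24.5 in knockout libraries, against 23.3 to 80.1 in control libraries, and to 15.3 to 19.2 in antibody libraries, against 15.4 to 18.7 in untreated libraries. The part of these traces in any result was not tested.

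In Trim28-knockout cells, 28 of the 78 members rose and 14 fell by limma at an adjusted p under 0.05, and 36 did not pass. These are 35.9% and 17.95% of the members, against 32.9% higher and 28.2% lower of all genes tested, and 42 of the 78 members were called in either direction, against 61% of all genes. Values per library are normalised read counts, and changes quoted without a unit are log2 fold changes. Groups did not overlap for 36 members on the higher side and 19 on the lower, against 43.4% and 38.9% of all genes. The members' median log2 fold change was 0.12, the same with Cox7a1 at its bound, and that of all genes was 0.03. The members' median was 0.04 without control replicate 2 and 0.05 without knockout replicate 2, with all genes still at 0.03. Upper-quartile scaling brought it to 0.04, with all genes at -0.05. Changes were small: among called members the median size was 0.29 on the log2 scale and 2 of 42 reached 2-fold (4.76%), against 0.47 and 17.1% of all called genes. Those 2, Cox7a1 and Cox6b2, needed control libraries to reach the minimum. With upper-quartile scaling 21 members were higher and 22 lower, and with 1 library left out the counts ranged from 13 to 25 higher (13 without knockout replicate 2, 17 without knockout replicate 1, 18 without control replicate 2) and from 5 to 11 lower (5 without knockout replicate 1, 8 without knockout replicate 2, 8 without control replicate 1). DESeq2 on the recovered reads called 15 higher and 10 lower.

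**Figure D1:**
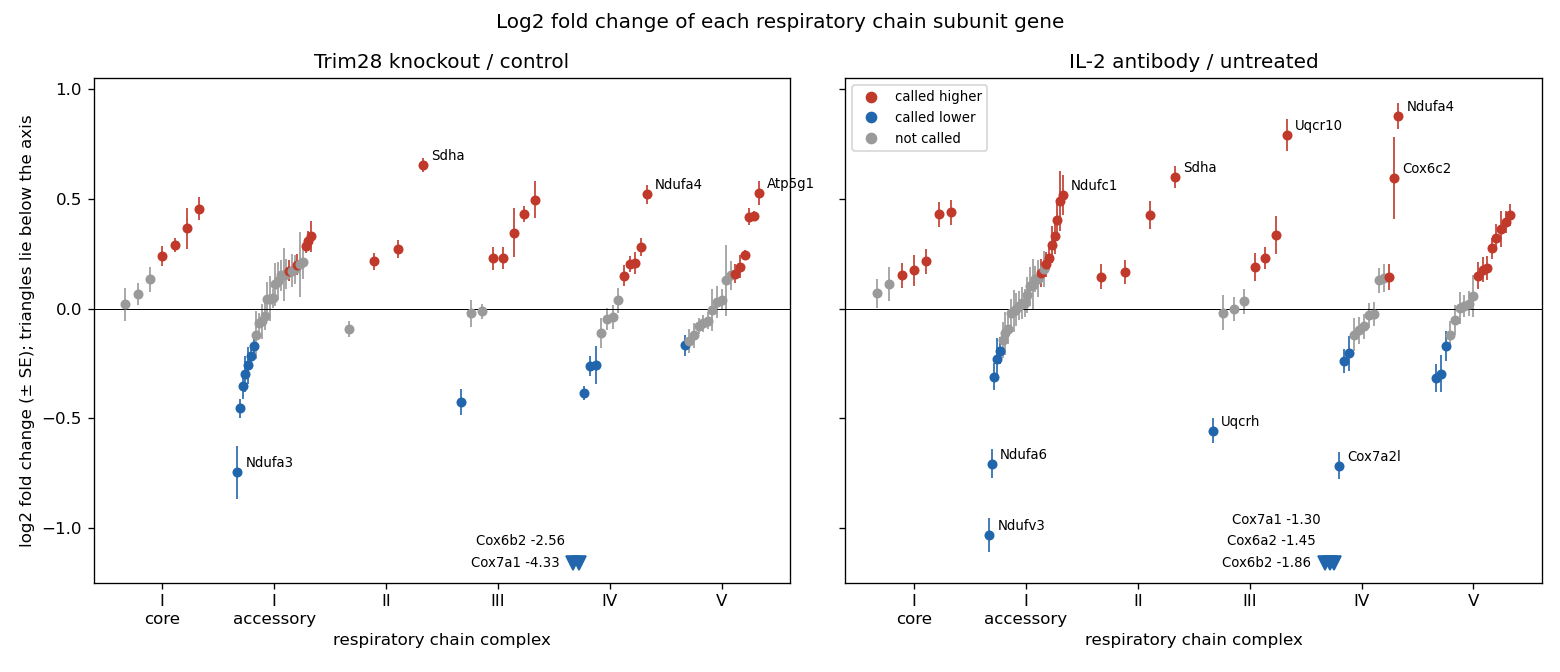
Log2 fold change (y axis, ± SE from limma) of every member, grouped by complex along the x axis, for Trim28 knockout against control (left) and IL-2 antibody against untreated (right), n = 2 libraries per group. Red points were called higher, blue lower and grey not called, and triangles lie below the axis with their fitted value written out. All called points of complex I core and complex II lie above 0 in both panels, whereas complex IV holds calls in both directions.

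Complex I core subunits, the conserved proteins that carry out electron transfer, were higher or not called in the knockout, with 4 of 7 higher and 0 lower. Ndufv1, which binds NADH, had 897 and 975 in the knockout libraries, against 679 and 685 in the control libraries. The knockout libraries lay above both control libraries, with a log2 fold change of 0.46 (SE 0.051, limma adjusted p = 0.000678). Ndufs7, next to the quinone site, had 507 and 618 in the knockout libraries, against 433 and 435 in the control libraries. That was a log2 fold change of 0.37 (SE 0.094, limma adjusted p = 0.017), and leaving out either control library ended the call (adjusted p = 0.112 and 0.107 in limma). Ndufs1 was also called, at 0.24, while Ndufs3, Ndufv2 and Ndufs8 had 0.13, 0.07 and 0.02 and did not pass. DESeq2 did not call Ndufs7 or Ndufs1.

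Complex I accessory subunits, which surround the core and are needed for assembly and stability, split, with 5 of 28 higher and 7 lower. Ndufa3, a small membrane-arm subunit, had 263 and 319.6 in the knockout libraries, against 534 and 445 in the control libraries. The groups did not overlap, and the log2 fold change was -0.75 (SE 0.12, limma adjusted p = 0.00296), although leaving out knockout replicate 1 ended the call (-0.61, with 0.0798 as the adjusted p in limma). Ndufv3, a small subunit of the NADH-oxidising module, had 903 and 941 in the knockout libraries, against 1296 and 1233 in the control libraries. It was lower in both knockout libraries, with a log2 fold change of -0.46 (SE 0.044, limma adjusted p = 0.000365). Ndufa6 (-0.35), Ndufa13 (-0.30), Ndufa2 (-0.26), Ndufs4 (-0.21) and Ndufb5 (-0.17) were lower as well. On the higher side, Ndufb4 of the membrane arm had 265 and 259 in the knockout libraries, against 218 and 199 in the control libraries. The groups were separate, with a log2 fold change of 0.33 (SE 0.071, limma adjusted p = 0.00877), but the call was lost without either knockout library (adjusted p = 0.101 and 0.0860 in limma). Ndufa8, Ndufa10, Ndufb10 and Ndufb6 were higher by 0.31, 0.29, 0.20 and 0.17. Ndufb6 was not called by edgeR or DESeq2. Of the higher members Ndufa8, Ndufb10 and Ndufb4, and of the lower Ndufa2, Ndufs4 and Ndufb5, were not called by DESeq2. Ndufb6 shares 39.0% of its exon bases with Smim27 on the other strand and Ndufa13 30.0% with Tssk6, and strand use in counting is not given in the sources used here.

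Complex II had 3 of its 4 subunits higher and 0 lower. Sdha (chr13:74322254-74350280, mm10), the flavoprotein that oxidises succinate, had 2078 and 2020.4 in the knockout libraries, against 1300.3 and 1301 in the control libraries. Its groups were far apart relative to their spread, with a log2 fold change of 0.66 (SE 0.033, limma adjusted p = 3.61e-05), the largest rise of any member. Sdhc, a membrane anchor, had 956 and 957 in the knockout libraries, against 811 and 774 in the control libraries. The separation exceeded the spread, at 0.27 (SE 0.041, limma adjusted p = 0.00223), yet the adjusted p in limma was 0.0505 without knockout replicate 1 and 0.0503 without knockout replicate 2. Sdhb, the iron-sulfur subunit, was higher by 0.22. DESeq2 did not call Sdhb or Sdhc. Sdhd, the other anchor, did not pass at -0.09, though it was called lower with no filter, under TMM or upper-quartile scaling and by edgeR.

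In complex III, 5 of 8 subunits were higher and 1 lower. Uqcr10, a small subunit beside cytochrome c1, had 1273 and 1321 in the knockout libraries, against 1006 and 839 in the control libraries. All knockout values exceeded all control values, with a log2 fold change of 0.50 (SE 0.085, limma adjusted p = 0.00357), but leaving out either knockout library ended the call (replicate 1, adjusted p = 0.0966 in limma, and replicate 2, 0.113). Uqcrc1, core protein 1, had 2455 and 2583 in the knockout libraries, against 1866 and 1867 in the control libraries. The control libraries were nearly equal and both knockout libraries lay above them, at 0.43 (SE 0.036, limma adjusted p = 0.000208). Uqcr11, Uqcrfs1 (the Rieske iron-sulfur protein) and Uqcrq were higher by 0.35, 0.23 and 0.23. With no filter on low values, Uqcr11, Uqcrfs1 and Uqcrq were not called. DESeq2 did not call Uqcr11 or Uqcrq. Uqcrh, the acidic hinge protein that helps cytochrome c1 meet cytochrome c, had 1145 and 1226 in the knockout libraries, against 1675 and 1516 in the control libraries. It was lower in both knockout libraries, at -0.43 (SE 0.060, limma adjusted p = 0.00161), but leaving out knockout replicate 1 ended the call (-0.38, with 0.0681 as the adjusted p in limma). Uqcrc2 and Uqcrb had -0.01 and -0.02 and did not pass.

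Complex IV showed calls in both directions, 5 of 14 higher and 5 lower. Cox6b2 (chr7:4751792-4753094, mm10), the isoform of Cox6b known from testis, had 15.8 and 9.80 in the knockout libraries, against 82.2 and 75.0 in the control libraries. Both knockout libraries were far below both controls, with a log2 fold change of -2.56 (SE 0.24, limma adjusted p = 0.000313). Knockout replicate 2 lay below the minimum of 10, so Cox6b2 needed its control libraries to pass. Its test is therefore not independent of the filter. Cox6b1, the widely expressed isoform, had 1299.9 and 1414 in the knockout libraries, against 1555 and 1383 in the control libraries. Those groups overlapped, and the log2 fold change of -0.11 did not pass. Cox7a1 (chr7:30184144-30186078, mm10), the heart and muscle isoform of Cox7a, had 0 and 0 in the knockout libraries, against 21.3 and 17.2 in the control libraries. With a floor of 3 counts per library for the knockout, this is at least 6.54-fold lower. Limma called it (adjusted p = 0.000255), but it reached the minimum only through the control libraries, so being lower was built into its passing. Cox7a2, the general isoform, had 829 and 948 in the knockout libraries, against 1133 and 993 in the control libraries. At -0.26 (SE 0.087, limma adjusted p = 0.0427) it passed, but leaving out any 1 library ended the call, with adjusted p values in limma of 0.0553 to 0.323. Cox7a2l, which helps join complexes III and IV into supercomplexes, had 1577 and 1524 in the knockout libraries, against 2016 and 2031 in the control libraries. This fall was larger than the spread, at -0.38 (SE 0.033, limma adjusted p = 0.000246).

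Ndufa4, a protein first assigned to complex I and now placed in complex IV, had the largest change of the remaining complex IV subunits. Ndufa4 (chr6:11900292-11907497, mm10) had 1187 and 1199.9 in the knockout libraries, against 855 and 807 in the control libraries. Both knockout libraries were above both controls, at 0.52 (SE 0.043, limma adjusted p = 0.000203). Cox5a, Cox8a, Cox6a1 and Cox4i1, which are structural subunits of the nuclear-encoded shell, were higher by 0.28, 0.21, 0.20 and 0.15. Cox6a1 had 2548 and 2636 in the knockout libraries, against 2290.2 and 2212 in the control libraries, and the only alternative to end its call left out knockout replicate 2 (limma adjusted p = 0.0610). The call of Cox4i1 did not hold under TMM scaling, edgeR or DESeq2. Cox7c was lower, with a log2 fold change of -0.26, while Cox5b, Cox6c and Cox7b had values of -0.05 to 0.04 and did not pass.

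Complex V had 6 of 17 members higher and 1 lower, with Atp5sl counted among the higher by its symbol alone. Atp5a1, the alpha subunit of the catalytic head, had 10618 and 10618 in the knockout libraries, against 7951 and 7899 in the control libraries. Replicates were almost equal and the groups well apart, at 0.42 (SE 0.022, limma adjusted p = 4.32e-05). Atp5b, the catalytic beta subunit, was higher by 0.24. The 3 genes Atp5g1, Atp5g2 and Atp5g3 encode the same mature subunit c of the rotating ring. Atp5g1 had 834 and 829 in the knockout libraries, against 603 and 550.4 in the control libraries. It was higher in both knockout libraries, at 0.53 (SE 0.055, limma adjusted p = 0.000493). Atp5g3 had 2420.5 and 2575 in the knockout libraries, against 1882 and 1850.0 in the control libraries, likewise without overlap, at 0.42 (SE 0.039, limma adjusted p = 0.000336). Atp5g2 had 1257 and 1313 in the knockout libraries, against 1357 and 1312 in the control libraries, and its log2 fold change of -0.06 did not pass.

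By symbol, the only complex V member lower in the knockout was Atp5l, subunit g of the membrane part, with 663 and 625 in the knockout libraries, against 733 and 714 in the control libraries. Its log2 fold change of -0.17 (SE 0.048, limma adjusted p = 0.0242) did not pass when reads of its gene copies were added (-0.10, adjusted p = 0.0760 in limma), nor without any 1 library (0.0546 to 0.124). Atp5sl (other name Dmac2), included by symbol, and Atp5d, the delta subunit of the central stalk, were higher by 0.19 and 0.16. Both calls were lost when any 1 library was left out, with DESeq2 and with upper-quartile scaling, and that of Atp5sl also with edgeR. The other 9 named ATP synthase genes and Atp5s, included by symbol, ranged from -0.15 to 0.15 and did not pass. The knockout table lists the subunit genes Atp5md and Atp5mpl under other names (Usmg5 and 2010107E04Rik), outside the symbol rule. Usmg5 had 633 and 735 in the knockout libraries, against 878 and 794 in the control libraries, which was lower by limma, at -0.29 (SE 0.085, limma adjusted p = 0.0272). The gene listed as 2010107E04Rik had 529 and 527 in the knockout libraries, against 657 and 602 in the control libraries, also lower, at -0.25 (SE 0.056, limma adjusted p = 0.00957).

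**Figure D2:**
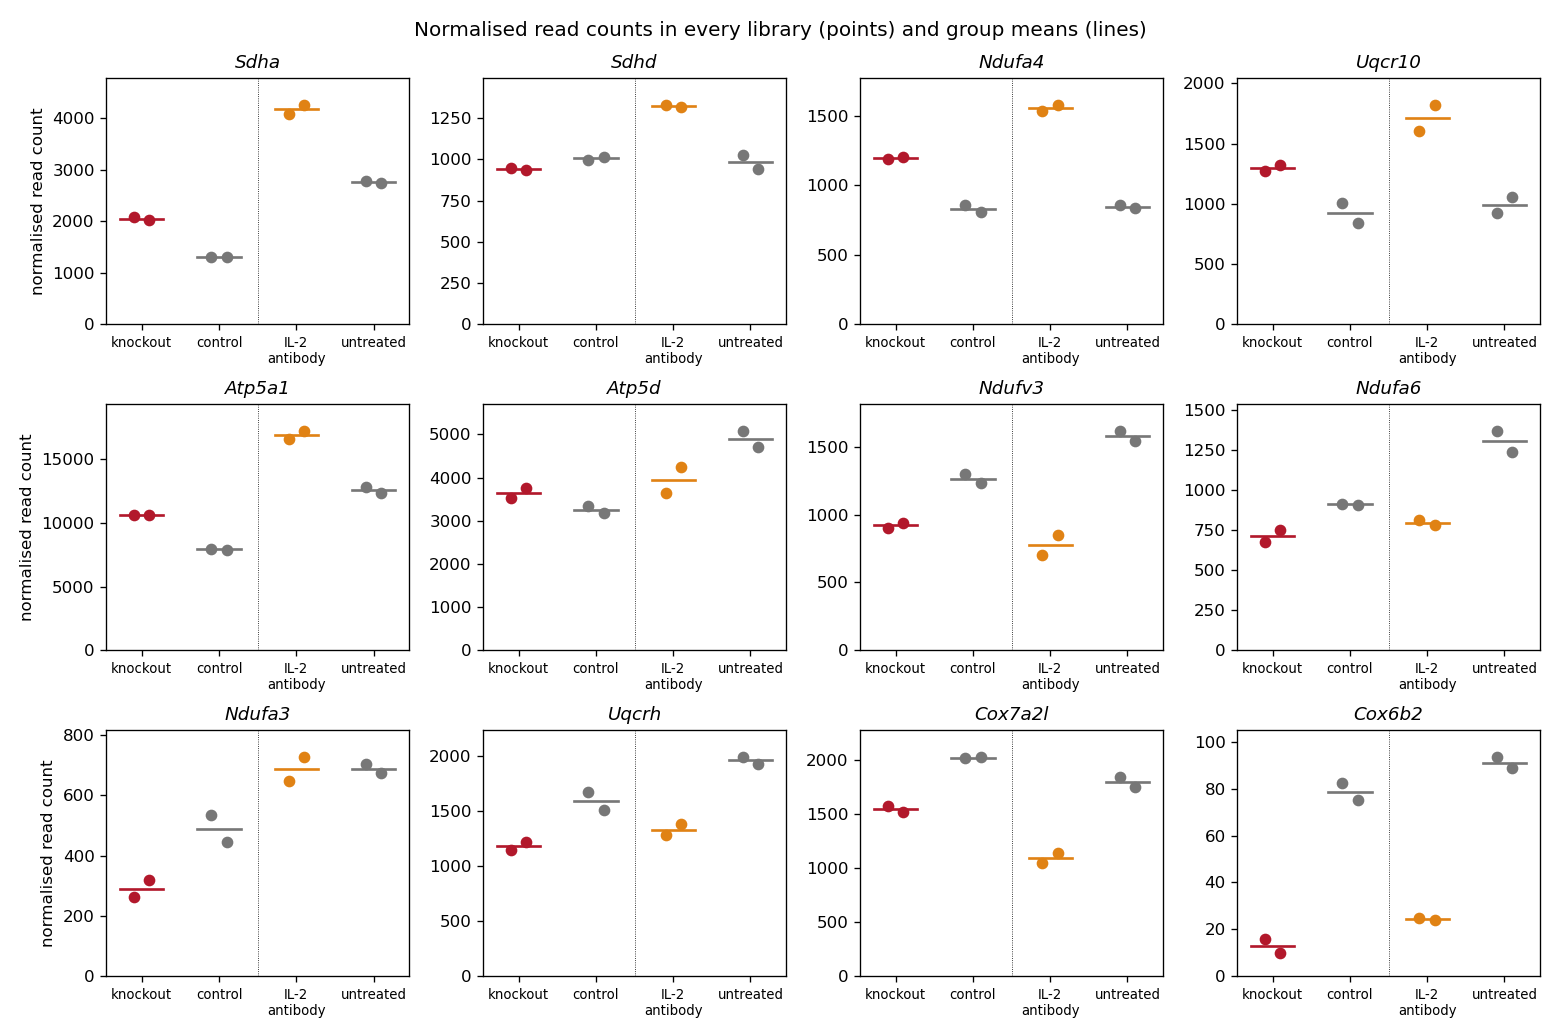
Normalised read count (y axis, from 0) of 12 members in every library, with knockout, control, IL-2 antibody and untreated groups from left to right. Points are single libraries, lines are means of n = 2, and the dotted line divides the separately scaled experiments. Sdha, Ndufa4, Uqcr10 and Atp5a1 are above their controls in both experiments, and Ndufv3, Ndufa6, Uqcrh, Cox7a2l and Cox6b2 below them.

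With IL-2 antibody, 32 of the 80 members rose and 15 fell, and 33 did not pass. These are 40.0% and 18.75% of the members, against 31.4% higher and 28.9% lower of all genes tested, and 47 of the 80 members were called in either direction, against 60.3% of all genes. Groups did not overlap for 38 members on the higher side and 19 on the lower, against 41.1% and 38.2% of all genes. The members' median log2 fold change was 0.09, against 0.02 for all genes. It was 0.13 without untreated replicate 1 and 0.05 without untreated replicate 2, with all genes at 0.02 and 0.01, and 0.03 with upper-quartile scaling, with all genes at -0.04. Called members again changed less than all called genes, with a median size of 0.31 against 0.55 and 4 of 47 past 2-fold (8.51%) against 24.7%. Upper-quartile scaling gave 23 higher and 18 lower. DESeq2 called 19 higher and 10 lower. Leaving out untreated replicate 2 left 14 higher, and untreated replicate 1 left 20 higher and 8 lower.

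All 4 complex II subunits were higher with the antibody and 0 lower. Sdha had 4081 and 4254 in the antibody libraries, against 2771 and 2731 in the untreated libraries. No library crossed between groups, at 0.60 (SE 0.051, limma adjusted p = 6.30e-09). Sdhd had 1331 and 1316 in the antibody libraries, against 1029 and 940.3 in the untreated libraries, a rise of 0.43 (SE 0.063, limma adjusted p = 1.02e-05) on the log2 scale. Sdhb and Sdhc were higher by 0.17 and 0.14. Sdhc was not called by edgeR (adjusted p = 0.0525) or DESeq2 (0.183). Sdhb was not called by DESeq2 or with upper-quartile scaling. In complex I core, 5 of 7 subunits were higher and 0 lower. Ndufs1, the largest core subunit, had 1594 and 1610.2 in the antibody libraries, against 1182 and 1181 in the untreated libraries. Both untreated libraries were almost equal and lay below, at 0.44 (SE 0.057, limma adjusted p = 2.11e-06). Ndufv1 had 1570.3 and 1556 in the antibody libraries, against 1156 and 1165 in the untreated libraries, at 0.43 (SE 0.058, limma adjusted p = 2.93e-06). Ndufs7 and Ndufv2 were higher by 0.17 and 0.15, while Ndufs8 and Ndufs3 had 0.11 and 0.07 without a call. Ndufs7 was not called by edgeR (adjusted p = 0.0528) or DESeq2 (0.221). Ndufv2 was not called by DESeq2 or with upper-quartile scaling.

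Among complex I accessory subunits 8 of 28 were higher and 5 lower. Ndufv3 had 702 and 847 in the antibody libraries, against 1617 and 1539.7 in the untreated libraries. Its 2 groups lay far apart, at -1.03 (SE 0.076, limma adjusted p = 7.55e-10). Ndufa6, a subunit of the LYR family in the matrix arm, had 811 and 785 in the antibody libraries, against 1372 and 1239 in the untreated libraries. Antibody libraries lay well below, at -0.71 (SE 0.066, limma adjusted p = 2.54e-08). Ndufa13, Ndufb9 and Ndufb11 were lower, at -0.31, -0.23 and -0.19. Ndufc1, of the membrane arm, had 452 and 421 in the antibody libraries, against 324 and 285 in the untreated libraries. It had the largest rise in this class, at 0.52 (SE 0.092, limma adjusted p = 7.53e-05). Ndufb2, Ndufa5, Ndufa12, Ndufb6, Ndufa10, Ndufc2 and Ndufa8 were higher by 0.16 to 0.49. Ndufa8 was not called by edgeR or DESeq2, and Ndufb2, Ndufb6, Ndufc2 and, on the lower side, Ndufb9 not by DESeq2. The other 15 ranged from -0.14 to 0.18 and did not pass.

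Complex III had 4 of 8 subunits higher and 1 lower with the antibody. Uqcr10 had 1604 and 1823 in the antibody libraries, against 925 and 1054 in the untreated libraries. The gap exceeded the spread of either group, at 0.79 (SE 0.072, limma adjusted p = 1.77e-08). Uqcr11, Uqcrc1 and Uqcrq were higher by 0.34, 0.23 and 0.19. DESeq2 did not call Uqcrq, and limma did not call Uqcrc1 without untreated replicate 2. Uqcrh had 1289 and 1382 in the antibody libraries, against 1997 and 1930.0 in the untreated libraries. It was lower in both antibody libraries, at -0.56 (SE 0.058, limma adjusted p = 1.22e-07).

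Complex IV had 3 of 16 members higher and 6 lower. Ndufa4 had 1533 and 1578 in the antibody libraries, against 854 and 836 in the untreated libraries. That was the largest rise of any member with the antibody, at 0.88 (SE 0.060, limma adjusted p = 2.74e-10). Cox7a2l had 1050.1 and 1137 in the antibody libraries, against 1841 and 1753 in the untreated libraries, a log2 fold change of -0.72 (SE 0.061, limma adjusted p = 6.73e-09) that left no overlap. The tissue-restricted isoforms were low in every library. Cox6b2 had 24.8 and 24.0 in the antibody libraries, against 93.5 and 88.6 in the untreated libraries, at -1.86 (SE 0.20, limma adjusted p = 1.92e-07). Cox7a1 had 6.68 and 7.67 in the antibody libraries, against 18.7 and 19.6 in the untreated libraries, at -1.30 (SE 0.37, limma adjusted p = 0.00528). Cox6a2, another heart and muscle isoform, had 5.73 and 5.75 in the antibody libraries, against 19.7 and 15.4 in the untreated libraries, at -1.45 (SE 0.40, limma adjusted p = 0.00397). DESeq2 did not call Cox7a1 (adjusted p = 0.0865) or Cox6a2 (0.0679). Both genes reached the minimum only through the untreated libraries, so being lower was built into their passing.

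Their widely expressed counterparts did not pass. Cox6b1 had 1715 and 1786 in the antibody libraries, against 1848 and 1731 in the untreated libraries, at -0.03. Cox7a2 had 1163 and 1179.6 in the antibody libraries, against 1307 and 1203 in the untreated libraries, at -0.10. Cox6a1 had 2440.0 and 2707 in the antibody libraries, against 2764 and 2675 in the untreated libraries, at -0.08, and limma called it lower without antibody library B (-0.16, adjusted p = 0.00222). Cox4i1 and Cox7c were lower, at -0.24 and -0.20, and Cox5a was higher by 0.14. Cox5a was not called by edgeR or DESeq2, and Cox7c not by DESeq2. Cox6c2, called higher at 0.60, is annotated as a processed pseudogene of Cox6c, a single-exon copy at chr12:56373593-56373823 (mm10) with 96.9% identity to the coding sequence of Cox6c. Its value is therefore uncertain.

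In complex V, 8 of 17 members were higher and 3 lower with the antibody. Atp5a1 had 16608 and 17227 in the antibody libraries, against 12802 and 12376 in the untreated libraries, at 0.43 (SE 0.049, limma adjusted p = 3.84e-07). Of the genes for subunit c, Atp5g3 had 3639.9 and 3592 in the antibody libraries, against 2729 and 2767 in the untreated libraries, at 0.40 (SE 0.050, limma adjusted p = 1.56e-06). Atp5g1 had 543 and 626 in the antibody libraries, against 465 and 443 in the untreated libraries, at 0.36 (SE 0.083, limma adjusted p = 0.000961). Atp5g2 had 802 and 804 in the antibody libraries, against 869.9 and 874 in the untreated libraries, and its -0.12 did not pass. As in the knockout, 2 of the 3 genes for this subunit were higher. Atp5d had 3643 and 4255 in the antibody libraries, against 5084 and 4717 in the untreated libraries. It was lower in both antibody libraries, at -0.31 (SE 0.064, limma adjusted p = 0.0003), but not called without untreated replicate 1 (-0.26, adjusted p = 0.0560 in limma). Atp5l and Atp5mpl were lower, at -0.30 and -0.17. Atp5e, Atp5b, Atp5pb, Atp5j and Atp5j2 were higher by 0.15 to 0.32. Atp5j2 was not called by edgeR or DESeq2, and Atp5j and Atp5mpl not by DESeq2.

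The 2 experiments share no library, so calls of the 75 members tested in both could be set side by side. In both, 20 members were higher, which is 74.1% of the 27 higher in the knockout and 66.7% of the 30 higher with the antibody. Lower in both were 9, which is 64.3% of 14 and 69.2% of 13. These are 26.7% and 12% of the 75 members, against 22.5% higher in both and 18.1% lower in both of all genes tested in both tables. The 20 higher members included Sdha, Sdhb, Sdhc, Ndufv1, Ndufs1, Ndufs7, Ndufa8, Ndufa10, Ndufb6, Uqcrc1, Uqcr10, Uqcr11, Uqcrq, Cox5a, Ndufa4, Atp5a1, Atp5b, Atp5g1 and Atp5g3. The 9 lower were Ndufv3, Ndufa6, Ndufa13, Uqcrh, Cox7a2l, Cox7c, Cox6b2, Cox7a1 and Atp5l. For Cox7a1, being lower was built into its passing of the minimum. Cox6b2 needed its control libraries to pass in the knockout experiment, so its call there is not independent of the filter. Calls of 6 higher members (Atp5a1, Atp5g3, Ndufa10, Ndufa4, Ndufv1, Sdha) and 4 lower members (Cox6b2, Cox7a2l, Ndufa6, Ndufv3) held in both experiments under every alternative that tested them. Matched by symbol, Atp5d and Cox4i1 were called higher in the knockout and lower with the antibody, a pattern of 3.48% of all genes. The opposite pattern was found in 0 of the 75, against 2.11% of all genes, and 22 were called in neither. Genes named differently in the 2 tables are outside these counts. Atp5sl, listed as Dmac2 in the IL-2 table, was higher by 0.19 in the knockout and lower with the antibody, at -0.30 (SE 0.078, limma adjusted p = 0.00275). Atp5mpl was lower in both, and Atp5md (Usmg5) was lower in the knockout alone by call, a difference between the effects that was not tested. Atp5f1 had -0.07 without a call in the knockout and, as Atp5pb, was higher by 0.18 with the antibody. Atp5s, listed as Dmac2l in the IL-2 table, was called in neither. As a description across genes, which are not independent, the 2 sets of log2 fold changes had Pearson's r of 0.758 and Spearman's rho of 0.67 over the 75 members. Without Cox6b2 and Cox7a1, r was 0.682 and rho 0.642, and over all 12428 genes r was 0.60 and rho 0.612.

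**Figure D3:**
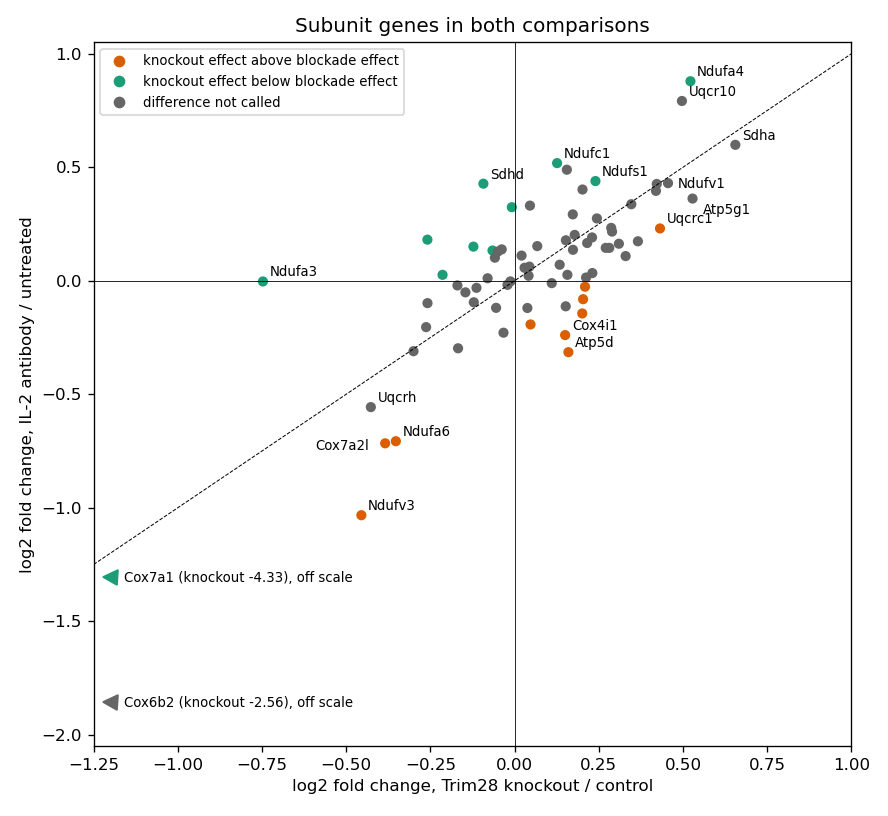
Log2 fold change of the 75 members tested in both experiments, Trim28 knockout over control on the x axis and IL-2 antibody over untreated on the y axis, n = 2 libraries per group. Orange and green points had a different effect in the 2 experiments by limma, the dashed line marks equal effects, and triangles at the left edge mark Cox6b2 and Cox7a1, whose knockout values lie beyond the x axis and are written out. Most called members lie at the lower left or upper right, with Ndufa3 and Sdhd away from the dashed line.

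Whether the effects differed was asked with limma across the 8 libraries together, as the knockout effect minus the antibody effect. It was above 0 for 10 members and below 0 for 11 of 75, against 24.7% and 17% of all genes, so 21 differed in either direction, against 41.7%. Sdhd differed by -0.52 (SE 0.074, limma adjusted p = 0.000121), being -0.09 in the knockout and 0.43 with the antibody. Ndufa3 differed by -0.74 (SE 0.14, limma adjusted p = 0.00132), with -0.75 in the knockout. Its antibody libraries had 648 and 728, against 704 and 674 in untreated libraries, so those groups overlapped. Ndufv3 differed by 0.58 (SE 0.10, limma adjusted p = 0.000805), Ndufa6 by 0.35 (SE 0.092, limma adjusted p = 0.008) and Cox7a2l by 0.33 (SE 0.070, limma adjusted p = 0.00235), each falling further with the antibody. Ndufa4 differed by -0.36 (SE 0.069, limma adjusted p = 0.00129), with the larger rise under antibody. Atp5d differed by 0.47 (SE 0.093, limma adjusted p = 0.00134) and Cox4i1 by 0.39 (SE 0.076, limma adjusted p = 0.00133). Cox7a1 had the largest fitted difference, -3.03 (SE 0.59, limma adjusted p = 0.00138), a value that depends on the pseudocount because its knockout libraries were at 0. It reached the minimum only through control and untreated libraries, so its test is not independent of the filter. For Sdha and Uqcrh the difference did not pass. These counts depended on single libraries: 6 were above 0 without knockout replicate 2, and below 0 were 5 without control replicate 1, 6 without untreated replicate 2 and 7 without knockout replicate 1.

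Genes that build, feed or regulate the chain were read beside the subunits. Of all genes tested, 32.9% were higher and 28.2% lower in the knockout (median 0.03), and 31.4% and 28.9% with the antibody (0.02). Assembly factors had 23 of 45 higher and 2 lower in the knockout (median 0.26 against 0.03 for all genes), and 24 of 43 higher and 4 lower with the antibody (0.31 against 0.02). Sdhaf1, which helps insert iron-sulfur clusters into Sdhb, had 372 and 391 in the knockout libraries, against 150.1 and 164 in the control libraries, at 1.28 (SE 0.072, limma adjusted p = 5.33e-05). In the IL-2 experiment it had 239.6 and 252 in the antibody libraries, against 76.9 and 87.5 in the untreated libraries, at 1.57 (SE 0.13, limma adjusted p = 3.63e-09). Ndufaf7, a methyltransferase needed for complex I assembly, had 300.3 and 309 in the knockout libraries, against 171 and 163 in the control libraries, at 0.86 (SE 0.064, limma adjusted p = 0.000139). Acad9, another complex I assembly factor, had 1089 and 1013 in the antibody libraries, against 496 and 486 in the untreated libraries, at 1.10 (SE 0.070, limma adjusted p = 9.57e-11). TCA cycle and pyruvate dehydrogenase genes had 11 of 16 higher and 0 lower in the knockout, and 12 of 16 higher and 1 lower with the antibody, with medians of 0.19 and 0.18. Dlat, of pyruvate dehydrogenase, and Mdh2, mitochondrial malate dehydrogenase, were higher by 0.65 and 0.54 in the knockout. With the antibody, Suclg2 of succinyl-CoA ligase and Idh3a of isocitrate dehydrogenase were higher by 1.23 and 0.62.

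Regulators of mitochondrial biogenesis had 9 of 15 higher and 1 lower in the knockout (median 0.33). With the antibody 8 of 15 were higher and 2 lower (0.16). Those 2 were Pprc1, at -0.30, and Myc, at -0.80. Myc had 19498 and 21057 in the antibody libraries, against 35198 and 35265 in the untreated libraries. In the knockout Tfb2m was lower, at -0.24. The shares over all genes were 32.9% higher and 28.2% lower in the knockout (median 0.03), and 31.4% and 28.9% with the antibody (0.02). Ppargc1b, the coactivator PGC-1beta, had 97.5 and 94.1 in the knockout libraries, against 36.5 and 28.4 in the control libraries, at 1.54 (SE 0.15, limma adjusted p = 0.00039). In the IL-2 experiment it had 219 and 241 in the antibody libraries, against 60.3 and 51.5 in the untreated libraries, at 2.02 (SE 0.14, limma adjusted p = 4.71e-10). Ppargc1a was listed at 0 in all 8 libraries. Twnk, the mitochondrial DNA helicase, was higher by 0.94 in the knockout, and Tfb1m, which modifies mitochondrial ribosomal RNA, by 0.83 with the antibody. Of the factors whose motifs were searched, Nrf1 was higher by 0.62 in the knockout and 0.82 with the antibody. Gabpa, the DNA-binding subunit of GABP, had 0.03 and -0.08 without a call, and Yy1 had -0.08 and 0.01 without a call. Gabpb1, the partner of Gabpa, did not pass in the knockout (-0.02) and was higher by 0.22 with the antibody. These 4 were named for the motifs. Among cytochrome c and other chain proteins 3 of 7 were higher and 3, Usmg5 included, lower in the knockout (median 0.08), and 1 of 6 higher and 3 lower with the antibody (-0.07). Cyc1, cytochrome c1 of complex III, was higher by 0.60 in the knockout, where Higd1a, a hypoxia-induced protein of the inner membrane, was lower at -0.40. With the antibody Higd1a was lower at -0.47 and Atpif1, the ATP synthase inhibitor, at -0.43.

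The 13 subunits encoded by mitochondrial DNA had 5 higher and 6 lower in the knockout (median -0.04), and 5 higher and 3 lower with the antibody (0.12). Over all genes, 32.9% were higher and 28.2% lower in the knockout (median 0.03), and 31.4% and 28.9% with the antibody (0.02). mt-Co1, the catalytic subunit of complex IV, had 53408 and 53777 in the knockout libraries, against 105102 and 104014 in the control libraries, at -0.96 (SE 0.018, limma adjusted p = 3.42e-06). mt-Co2, which receives electrons from cytochrome c, had 7944 and 7934 in the knockout libraries, against 13085 and 12129 in the control libraries, at -0.67 (SE 0.039, limma adjusted p = 6.05e-05). mt-Cytb, of complex III, had 70316 and 74725 in the antibody libraries, against 54760.5 and 52535 in the untreated libraries, at 0.43 (SE 0.054, limma adjusted p = 1.21e-06). Levels in the 2 tables are far apart for some of these genes: mt-Co2 had 262 and 255 in the antibody libraries, against 186 and 197 in the untreated libraries, with a call in the other direction (0.43 (SE 0.10, limma adjusted p = 0.00147)). Mitochondrial genes have near-identical nuclear copies, so these values are uncertain.

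Levels were compared between members per kilobase of exon, as normalised reads. Exon length counted every annotated exon of a gene, which can exceed the length of its mRNA. Ndufb2, for example, had 5628 exon bases, so ranks between members are uncertain. In control libraries they spanned 11.2 (Atp5s) to 4180.5 (Cox8a), and in untreated libraries 19.0 (Ndufb2) to 4877 (Cox8a). Per kilobase, the median over members was 533 in knockout, 514 in control, 631 in antibody and 588 in untreated libraries. Complex I core subunits had medians of 355 in knockout against 261 in control libraries, and 594 in antibody against 440.5 in untreated libraries (levels per kilobase). For complex I accessory subunits the medians were lower, 379 in knockout against 407 in control libraries. With the antibody they were 479, against 530.1 in untreated libraries. A median level can fall on a different gene in each group, so it does not measure change. The median log2 fold change of accessory subunits was 0.08 in the knockout and 0.04 with the antibody. Complex IV had 903 in knockout against 973 in control libraries, and 689 in antibody against 596 in untreated libraries. Its median log2 fold change was -0.04 in the knockout and -0.09 with the antibody. Complex II had 564 in knockout against 429.8 in control libraries, and 933 in antibody against 715 in untreated libraries. The members' reads made up 0.804% and 0.836% of all values in knockout libraries, against 0.749% and 0.719% in control libraries. The shares were 0.841% and 0.863% in antibody libraries, against 0.742% and 0.727% in untreated libraries. In both experiments the groups did not overlap. Atp5a1 and Atp5b, the most abundant members by reads, made up 54.3% of the difference in the members' summed reads in the knockout and 67.2% with the antibody. Without that pair the shares were 0.5975% and 0.627% in knockout libraries, against 0.583% and 0.555% in control libraries, and 0.5955% and 0.609% in antibody libraries, against 0.553% and 0.541% in untreated libraries, again without overlap. The summed reads of the shorter members overlapped, with 34109 and 35971 in knockout libraries, against 35677 and 33276 in control libraries, and 36570.3 and 38261 in antibody libraries, against 38158 and 36698 in untreated libraries.

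**Figure D4:**
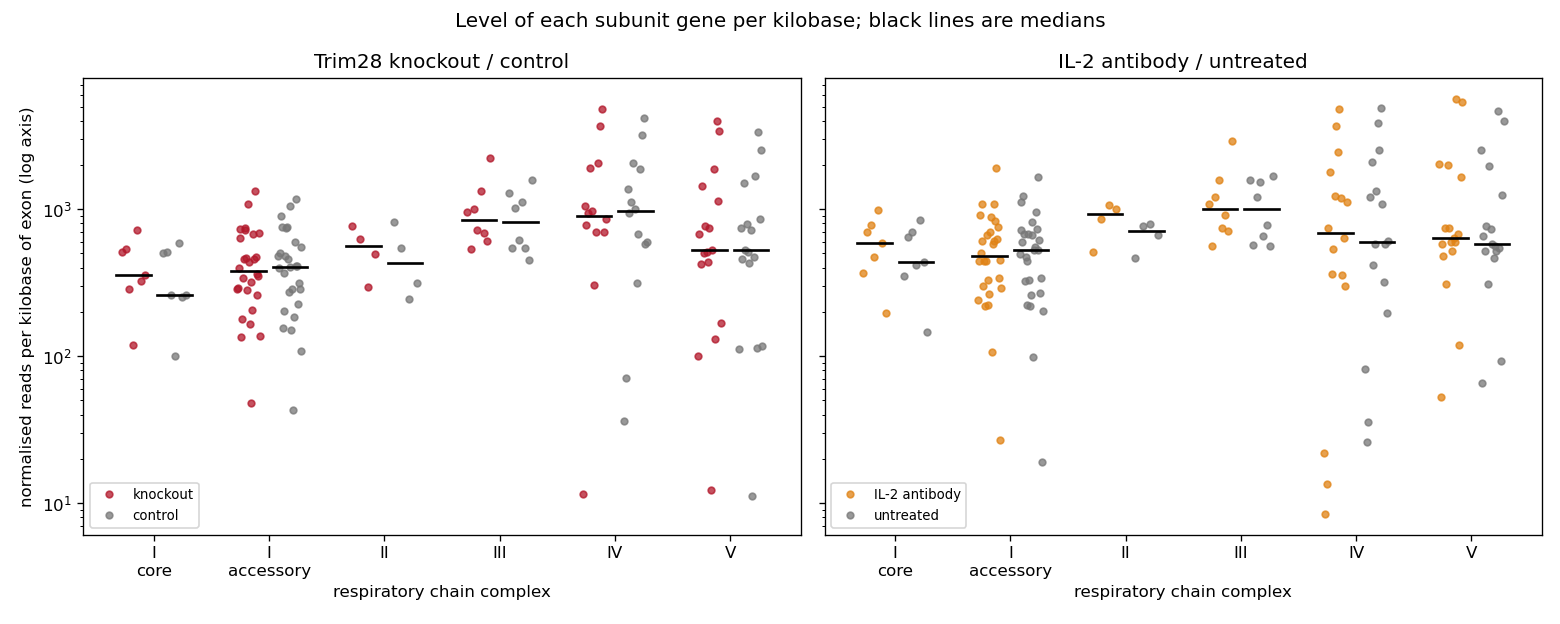
Normalised reads per kilobase of exon (log axis) of each member by complex, with the knockout beside its control on the left panel and IL-2 antibody beside untreated on the right panel. Points are group means of n = 2 libraries, black lines are medians over the members, and Cox7a1, at 0 in the knockout, cannot be drawn there. Core subunits of complex I and complex II have higher medians in the knockout than in its control, complex I accessory subunits and complex IV lower ones. Cox8a is the highest control value at 4180.5. These are medians of levels, which can move otherwise than the fold changes of the members.

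Members moved together between replicates of a group, which bears on every count. Their median log2 difference was -0.07 between knockout replicates 1 and 2 and 0.07 between control replicates 1 and 2, while over all genes it was under 0.01. Between antibody libraries A and B it was -0.05, and between untreated replicates 0.05. Shorter members (up to the median exon length of 1697 bases) had a median log2 fold change of 0.04 in the knockout, against 0.16 for longer members. With the antibody these were -0.01 and 0.15. Exon length here is not mRNA length, and its part in the calls was not tested.

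Gene copies limit 22 members, for which 42 annotated copies share at least 95% identity over at least 50% of the coding sequence. The tables differ in how many reads the copies hold. Copies of Atp5g2 held 54.4% of the summed reads in the knockout table and 7.63% in the IL-2 table, and those of Atp5l 52.0% and 1.99%. For Cox7c the shares were 34.8% and 5.08%, for Atp5g1 35.6% and 25.9%, and for Cox7a2l 20.6% and 14.1%. Adding the copies to their parent genes, an alternative chosen after seeing the data, gave 29 higher and 14 lower in the knockout and 32 and 15 with the antibody. Ndufa12 (0.27, limma adjusted p = 0.0475) and Atp5h (-0.15, limma adjusted p = 0.0357) then passed in the knockout, whereas Atp5l did not. Cox7a2l (-0.39 and -0.74) and Atp5g1 (0.52 and 0.37) kept their calls in both experiments.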

How the data were processed

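The authors deposited 1 table per experiment with a normalised count signal per gene and library, namely reads divided by a DESeq2 size factor. Per the submitters' processing notes, the tools were HISAT2 2.2.1, StringTie 2.1.4, Trim Galore 0.4.4 and DESeq2, with the mm10 genome. The authors also deposited DESeq2 log2 fold changes (coded as control over treated), p-values and the score columns of that test (standard error and Wald statistic), per the file headers, which gave no result here. The read counter, annotation and filters are not given in the sources used here. Divided by what 1 read is worth in its library, 100.0% of values came out whole (tolerance 0.001). The knockout table held 24 names altered to dates.

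Genes reaching 10 in 2 or more libraries were compared on log2(value + 1), which understates changes of low genes, with limma 3.58.1 (mean-variance trend, R 4.3.3), each experiment alone. The 8 libraries in one fit gave the difference of effects. P-values were adjusted by Benjamini-Hochberg over all genes, with calls under 0.05. Alternatives were a pseudocount of 0.5, no filter or a mean of at least 50, TMM and upper-quartile scaling, edgeR 4.0.16 and DESeq2 1.42.0 on the recovered reads, 1 library left out, and a replicate block. EdgeR called 4548 genes higher and 4571 lower in the knockout and 4258 and 4151 with antibody. The tests were also run on simulated counts with known changes. Those counts were drawn independently for each gene, unlike the members here, so the run cannot show that these calls hold. Copies were found with blastn 2.17.0. Positions and exons came from GENCODE on GRCm38 (mm10).

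Values of 1 member and 1 marker gene are not reported here. Members, gene lists and the naming rule were chosen with earlier results of these data known. Per complex and comparison, values in every library are given for the 2 called members with the largest changes and the largest in the other direction, for isoform sets and for the 4 largest differences between effects. From other lists the 2 called genes with the largest changes are named, and from the regulators of biogenesis also those called lower.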

Additional observations from a re-analysis of the deposited data

Results flagged for a closer look

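For 21 members the knockout effect differed from the IL-2 antibody effect by limma in the fit of all 8 libraries, and the values are knockout effect minus antibody effect in log2 units. In complex I the difference was below 0 for Ndufa3 (-0.74), Ndufa2 (-0.44), Ndufc1 (-0.39), Ndufs4 (-0.24), Ndufs1 (-0.20) and Ndufa9 (-0.20), and above 0 for Ndufb11 (0.24), Ndufb10 (0.34), Ndufa6 (0.35) and Ndufv3 (0.58). Complex II and III had 1 member each, Sdhd (-0.52) and Uqcrc1 (0.20). In complex IV it was below 0 for Cox7a1 (-3.03) and Ndufa4 (-0.36), and above 0 for Cox8a (0.24), Cox6a1 (0.28), Cox7a2l (0.33) and Cox4i1 (0.39). In complex V it was below 0 for Atp5e (-0.33) and Atp5j2 (-0.27), and above 0 for Atp5d (0.47). Groups of 2 libraries could not be tested for a library that stands apart. Cox7a1 reached the minimum only through control and untreated libraries, so its test is not independent of the filter.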

How the results depend on the processing

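No member reversed its direction while called. Of called members, 10 of 28 higher and 5 of 14 lower in the knockout, and 12 of 32 higher and 6 of 15 lower with the antibody, kept their call under every alternative that tested them. Higher calls in the knockout were 15 with DESeq2 and 13 to 25 with 1 library left out, and lower calls were 9 with no filter, 22 with upper-quartile scaling and 5 to 11 with 1 library left out. With the antibody, higher calls were 17 with no filter, 19 with DESeq2 and 14 to 36 with 1 library left out, and lower calls were 9 with no filter and 8 to 16 with 1 library left out. The median in the knockout was 0.040 with upper-quartile scaling and 0.039 to 0.156 with 1 library left out. The median with the antibody was 0.033 with upper-quartile scaling and 0.053 to 0.135 with 1 library left out. Over all genes, upper-quartile scaling moved the split to 4199 higher and 5227 lower in the knockout and 3822 and 4497 with the antibody, with shifts of the median of -0.08 and -0.05. With 1 library left out, 6 to 12 members had a knockout effect above the antibody effect and 5 to 13 below it. The cause of these movements was not tested. A group then has 1 library, assumed to vary like the other group.

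With the replicate number as a block, 28 members were higher and 14 lower in the knockout. Deviations of same-numbered libraries were nearly unrelated over genes (r = 0.0127). The labels do not say whether equal numbers mark paired samples, and this correlation cannot decide it. For the IL-2 experiment, no paired analysis was possible because the antibody columns carry no number. With 2 libraries per group and differences near 0.1 on the log2 scale, small effects may be missed.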
